A study of Mus with 2 samples.

Results

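The droplets examined here were those in which genes of the mitochondrial genome held over 25% of all unique molecular identifiers (UMIs, which count RNA molecules). They were chosen by the measured mitochondrial share alone, and so that share is a description and not a result. There were 1352 such droplets of 18266 in all, 592 of 9494 in the Wtap flox/flox library and 760 of 8772 in the Wtap-BKO-labelled library. They were compared with the droplets under 5% mitochondrial UMIs, 6358 and 2205 in these libraries, on what remained after mitochondrial genes were set aside. Each value below is a number of UMIs per 1000000 non-mitochondrial UMIs (CPM) summed over a group of droplets, unless stated otherwise.

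Nuclei came from frozen interscapular brown adipose tissue (iBAT) of C57BL/6 mice fed normal chow to the age of 8 weeks. All mice carried floxed Wtap alleles (Wtap flox/flox), and the mice labelled BKO also carried UCP1-iCre, in which the Ucp1 gene drives Cre in brown adipocytes. Each library pooled nuclei from 4 mice, which leaves 1 library per genotype, no replicate and no test. All intervals are exact 95% intervals and cover counting error only. The mice of a pool cannot be told apart, and neither can genotype, pool and library preparation.

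The mitochondrial genome encodes 13 subunits of the respiratory chain and of ATP synthase. These messages are made and translated inside mitochondria, in the cytoplasm, while most subunits of the same complexes come from nuclear genes whose messages are translated on cytosolic ribosomes. Brown adipocytes are packed with mitochondria, and UCP1 in their inner membrane turns the proton gradient into heat. The long non-coding RNAs (lncRNAs) Malat1 and Neat1 stay in the nucleus after they are made.

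The droplets over 25% made up 6.24% (5.76 to 6.74) of Wtap flox/flox droplets and 8.66% (8.08 to 9.27) of those in the Wtap-BKO-labelled library. They held 37.6% and 26.6% of the mitochondrial UMIs of their libraries. The median mitochondrial share among them was 34.4% and 35.1%, and the highest was 69.1% and 73.4%. The whole distributions differed more than these tails did, with 67.0% of Wtap flox/flox droplets under 5% but 25.1% of those labelled Wtap-BKO. No gap separated the groups at the threshold. Between 24% and 25% lay 54 and 56 droplets, and between 25% and 26% lay 40 and 53. The nuclear-encoded genes of oxidative phosphorylation (OXPHOS) stood at 37540 CPM just below the threshold and 37700 just above it in Wtap flox/flox, and at 21406 and 21845 in the Wtap-BKO-labelled library. Malat1 stood at 14980 and 12895 in the former and at 23916 and 19808 in the latter.

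**Figure D1:**
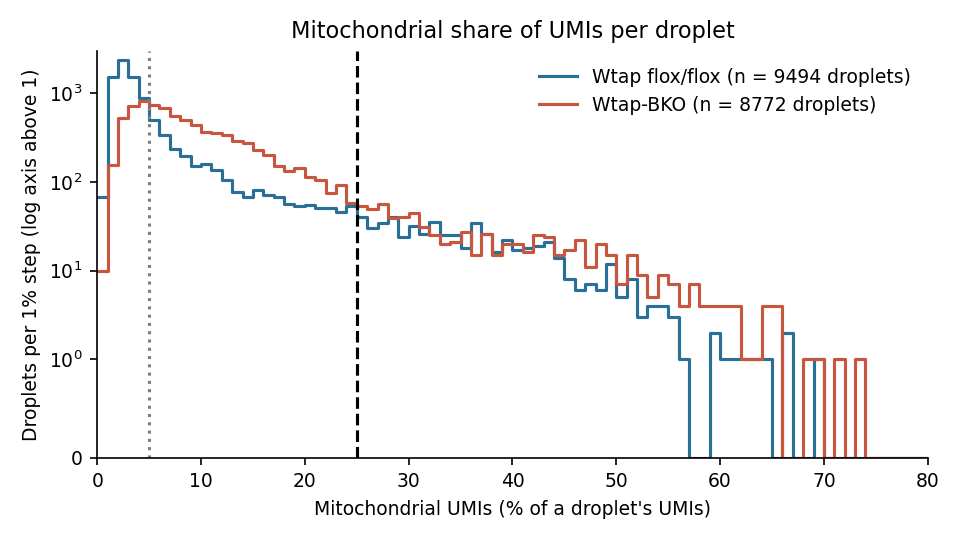
Number of droplets (log axis above 1) in 1% steps of the mitochondrial share of UMIs, for the Wtap flox/flox library (blue) and the Wtap-BKO-labelled library (red). The dotted line marks 5% and the dashed line 25%, and both curves pass through 25% without a gap, and the highest droplets lie at 69.1% and 73.4%.

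The droplets over 25% were shallower once mitochondrial UMIs were set aside, with medians of 623.5 and 758.5 non-mitochondrial UMIs against 954 and 1287 under 5%. After each droplet was thinned to 300 non-mitochondrial UMIs, they showed 187 and 221 genes at the median against 239 and 250 under 5%. Thinning left out 6 and 1 of them. The lowest total in either library was 500 UMIs. Both libraries shared 20 barcodes, of which 2 were over 25% in Wtap flox/flox and 2 in the Wtap-BKO-labelled library, with 0 over 25% in both. No doublet was removed and no doublet caller was run in the present work, and whether doublets were removed before deposit is not given in the sources used here.

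Among the mitochondrial UMIs themselves, mt-Co1, mt-Co3, mt-Atp6 and mt-Co2 were the most frequent genes in the droplets over 25% of both libraries. mt-Nd4, a subunit of complex I, was 6.00% of mitochondrial UMIs in the droplets over 25% against 3.51% under 5% in Wtap flox/flox, and 5.13% against 4.34% in the Wtap-BKO-labelled library. mt-Cytb, the cytochrome b of complex III, was 6.18% against 5.74% and 5.53% against 5.62%. mt-Co2, a subunit of complex IV, was 14.8% against 12.6% and 14.1% against 14.1%. mt-Nd6, the one protein gene on the other strand of the mitochondrial genome, was a smaller part of mitochondrial UMIs in the droplets over 25%, with 0.153% against 0.276% and 0.205% against 0.235%. Of the 4 genes given as markers of these droplets, mt-Nd6 was thus the least frequent.

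Wtap, the targeted gene (ENSMUSG00000060475, chromosome 17, 12966799 to 12992543 in GRCm38.p6), did not separate the libraries. In the droplets over 25% it had 23 UMIs in Wtap flox/flox (42.4 CPM) and 41 UMIs in the Wtap-BKO-labelled library (55.5 CPM), a log2 ratio of 0.39 (-0.38 to 1.19). Under 5% it had 57.0 and 61.7 CPM, a ratio of 0.11 (-0.13 to 0.36). Reads on the deleted exon were not counted apart from the rest of the gene. Directions between genotypes are therefore drawn from the labels.

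Nuclear genes of OXPHOS were higher in the droplets over 25% of both libraries. Their summed level was 46064 CPM against 11089 under 5% in Wtap flox/flox, a log2 ratio of 2.05 (2.03 to 2.08), and 32136 against 6892 in the Wtap-BKO-labelled library, a log2 ratio of 2.22 (2.20 to 2.25). Of the list members with enough signal for a comparison, 73 of 78 in Wtap flox/flox and 74 of 77 in the Wtap-BKO-labelled library were higher by 2-fold or more, and 0 were lower by 2-fold. Of the members compared, 9 of 78 and 16 of 77 reached 50 CPM only in the droplets over 25%, and without them 64 of 69 and 58 of 61 were 2-fold higher. Of all genes compared in the same way, 14.4% were 2-fold higher and 32% were 2-fold lower in the former library (624 and 1388 of 4331), and 11.5% and 20.1% in the latter (588 and 1027 of 5101). Medians over the list members with at least 20 UMIs were 2.06 and 2.15, beside -0.47 and -0.39 over all genes with at least 20 UMIs. Of the genes past 2-fold, 31.0% and 36.4% were on the higher side, a split that depended on scaling. It was 74.9% and 65.6% when values were scaled by the median of ratios over genes, which moved the median of all genes by 0.51 and 0.38, and 52.8% and 45.3% with Gm42418, AY036118 and Malat1 left out of the denominator. Ratios are best read relative to the median of all genes.

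The higher OXPHOS genes belonged to every complex of the chain. Complex I was represented by Ndufb9, at 1031 CPM against 135 in Wtap flox/flox and 517 against 70.7 in the Wtap-BKO-labelled library. Sdhb, the iron-sulfur subunit of complex II, was at 315 against 111 and 180 against 60.8. Uqcrq of complex III was at 1356 against 231 and 934 against 158. In complex IV, Cox4i1 was at 2866 against 492 and 1688 against 269. The beta subunit of ATP synthase, Atp5b, was at 1669 against 447 and 1091 against 267. In each of these 5 genes the level over 25% was above the level under 5% in both libraries. The exceptions were few. Ndufs1, the largest subunit of complex I, was at 192 against 219 CPM in Wtap flox/flox and 190 against 122 in the Wtap-BKO-labelled library, and Ndufs4 was at 208 against 216 and 253 against 156.

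The genes of cytosolic ribosomal proteins behaved alike. Their sum was 26981 CPM against 6008 in Wtap flox/flox (log2 ratio 2.17, 2.14 to 2.19) and 20326 against 6735 in the Wtap-BKO-labelled library (1.59, 1.56 to 1.62). By 2-fold or more, 75 of 78 and 70 of 76 were higher and 0 lower, and of those that reached 50 CPM in both kinds of droplet 52 of 53 and 59 of 63 were higher. Medians over 80 members with at least 20 UMIs were 2.18 and 1.58. Rplp1, an acidic protein of the ribosomal stalk, was at 1188 against 162 and at 968 against 230 CPM. Rpl10, of the large subunit, was at 53.4 against 39.9 and at 65.0 against 43.0, among the smallest ratios of the list. Ribosomal protein genes have many processed pseudogenes, and how reads shared with such copies were counted is not given in the sources used here.

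Gm42418 and AY036118, annotated genes that overlap ribosomal RNA sequence and collect its reads, took a large part of the droplets over 25%. Gm42418 alone was at 248414 CPM against 76552 in Wtap flox/flox and at 151612 against 63195 in the Wtap-BKO-labelled library. In single droplets of Wtap flox/flox its median share of non-mitochondrial UMIs was 25.4% against 7.76%, and the interquartile range was 20.2% to 29.9% against 6.02% to 9.90%. The library labelled Wtap-BKO had medians of 15.7% against 6.03%.

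Nuclear lncRNAs were lower. Their list was at 12440 CPM against 48177 in Wtap flox/flox (log2 ratio -1.95, -1.99 to -1.92) and at 17635 against 34876 in the Wtap-BKO-labelled library (-0.98, -1.01 to -0.96). The lists were led by Malat1 (ENSMUSG00000092341, chromosome 19, 5795690 to 5802672), which supplied 81.3% and 86.4% of their UMIs over 25%. Malat1 was at 10112 CPM against 42480 in Wtap flox/flox and at 15240 against 29914 in the Wtap-BKO-labelled library. Neat1, the scaffold of paraspeckles, was at 1380 against 3860 and at 1486 against 2595. The imprinted antisense RNAs Airn and Kcnq1ot1 were also lower, Airn at 448 against 847 and at 313 against 917, and Kcnq1ot1 at 192 against 317 and at 263 against 546. In Wtap flox/flox, however, Kcnq1ot1 (log2 ratio -0.72) and Meg3 (-0.68) were near the median of the compared genes (-0.70). In the Wtap-BKO-labelled library the intervals of Tug1 (-0.44), Lncbate10 (-0.36) and Snhg14 (-0.19) held 0. Intervals lay below 0 for 11 of 11 members in the former library and 8 of 11 in the latter. The medians over 11 members with at least 20 UMIs were -1.19 and -0.97, beside -0.47 and -0.39 over all genes. Of the members that reached 50 CPM in both kinds of droplet, 3 of 6 and 3 of 7 were lower by 2-fold. Of all genes compared, 32% and 20.1% were, but these needed 50 CPM in only 1 kind of droplet. The strand used in counting is not given in the sources used here, so UMIs of these antisense genes cannot be told apart from those of the genes they overlap.

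These opposite patterns were graded along the mitochondrial share and did not begin at 25%. From droplets of at most 2% to those over 40%, the OXPHOS list went from 9395 to 56477 CPM in Wtap flox/flox and from 5317 to 49405 in the Wtap-BKO-labelled library, and each step was above the one before it. Malat1 went from 47272 to 6724 and from 34996 to 7126, and each step was below the one before it. Over 40% the libraries thus had near levels of Malat1, although their levels between 25% and 40% were 11121 and 18192. Within the droplets over 25%, the OXPHOS and Malat1 shares of single droplets had a Spearman correlation of -0.47 in Wtap flox/flox (n = 592 droplets) and -0.67 in the Wtap-BKO-labelled library (n = 760). Both shares have the same denominator and come from 1 library each, so this is given as a description.

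**Figure D2:**
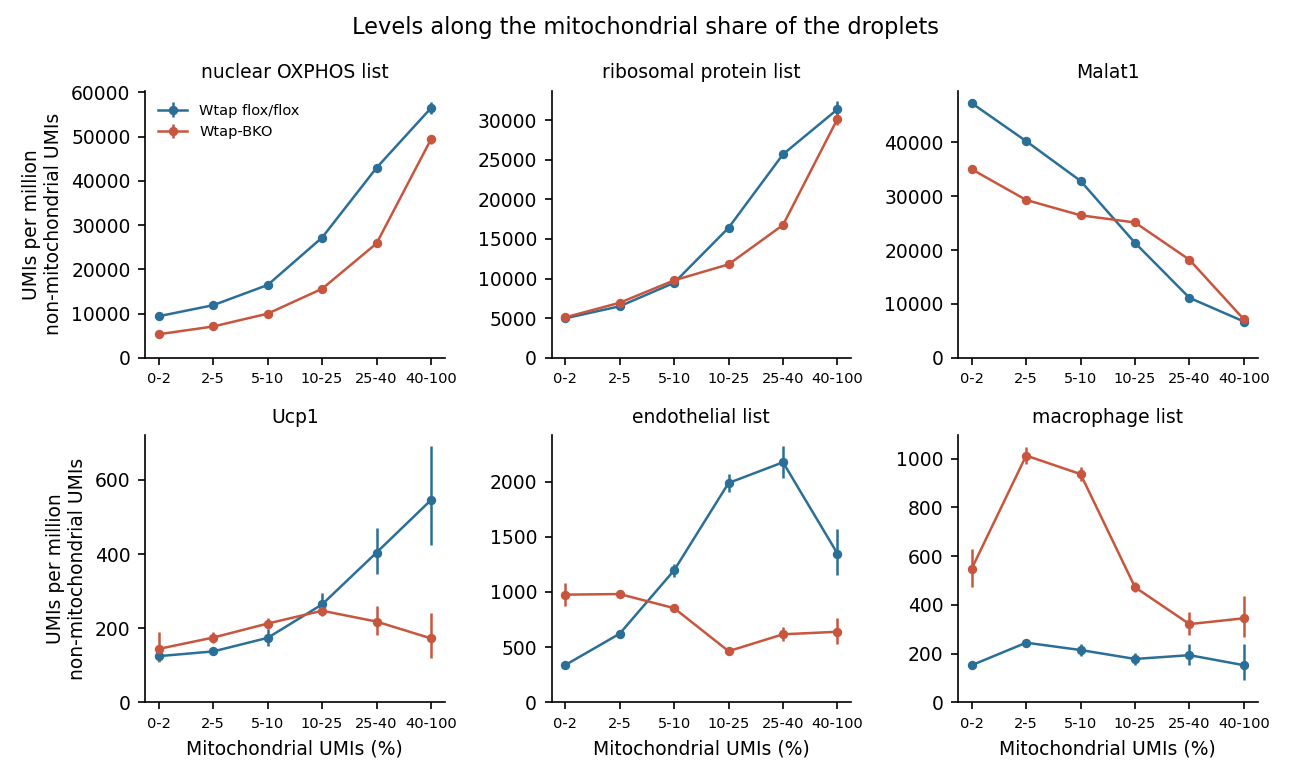
Level in UMIs per 1000000 non-mitochondrial UMIs (y axes start at 0) of 4 gene lists and of Malat1 and Ucp1 in droplets binned by mitochondrial share (x axis, %), for Wtap flox/flox (blue) and the Wtap-BKO-labelled library (red), with exact Poisson 95% intervals. OXPHOS and ribosomal protein genes stood higher and Malat1 lower at each successive step in both libraries, while Ucp1 and endothelial genes took different courses in the 2 libraries.

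Of the 1994 genes eligible for naming, the 12 with the highest ratio in both libraries were Fth1, Ndufb9, Ndufa1, Cox8a, Cox6a1, Ndufb8, Ndufa4, Dbi, Rps27l, Ndufa2, Ndufs6 and Uqcrq, of which 9 are OXPHOS genes. Fth1, the heavy chain of the iron store ferritin (ENSMUSG00000024661, chromosome 19, 9980600 to 9985111), led them at 1917 CPM against 195 in Wtap flox/flox and at 2266 against 279 in the Wtap-BKO-labelled library. The log2 ratios were 3.30 and 3.02. Dbi, the acyl-CoA-binding protein, was at 1221 against 198 and at 1585 against 252. The 12 with the lowest ratio were Pag1, Smad3, Mir99ahg, Zdhhc14, Lrmda, Ube2e2, Cpq, Zbtb16, Ehbp1, Ssbp2, Pde7b and Enox2. Zbtb16, a zinc-finger transcription factor, was at 394 against 1077 and at 107 against 325 CPM. Smad3, which carries TGF-beta signals into the nucleus, was at 47.9 against 164 and at 66.3 against 207.

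The named genes also differed in the length of genome they span. In GRCm38.p6 the 12 highest spanned 2256 to 8607 bp and the 12 lowest 111229 to 1036590 bp. Over all genes compared, 99.0% of which had a span in each library, the median log2 ratio went from 1.77 (Wtap flox/flox) and 1.38 (Wtap-BKO-labelled) for genes of up to 5 kb to -1.16 and -1.17 for genes over 250 kb. Genes of up to 5 kb were higher by 2-fold in 70.3% and 62.2%, and genes over 250 kb were lower by 2-fold in 60.3% and 59.1%. Genes that reached 50 CPM in only 1 kind of droplet were not left out, and a gene that passed that way tends to be high there. With the OXPHOS and ribosomal protein lists left out, the medians for genes of up to 5 kb were 1.38 and 1.06. Span was not told apart from intron content, expression level or function.

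**Figure D3:**
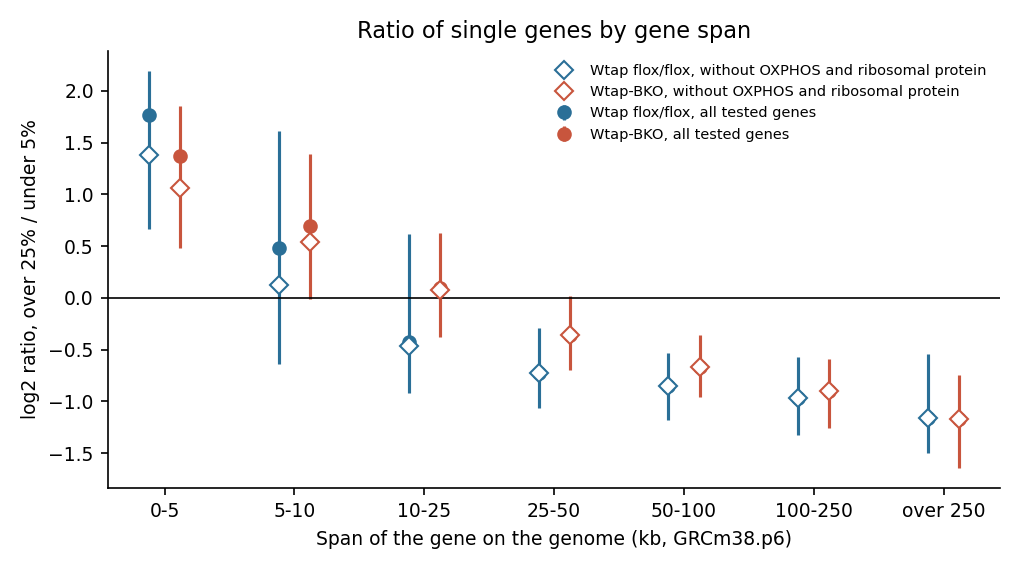
Median log2 ratio (over 25% against under 5%) of single genes by the span of the gene on the genome in kb, with bars from the first to the third quartile of genes, for Wtap flox/flox (blue) and the Wtap-BKO-labelled library (red). Open diamonds leave out OXPHOS and ribosomal protein genes, and the medians run from 1.77 and 1.38 at up to 5 kb to -1.16 and -1.17 over 250 kb.

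A comparison of both libraries was possible for 3992 genes. The 378 genes that were 2-fold higher in both were 70.7% of those higher in Wtap flox/flox and 77.6% of those higher in the Wtap-BKO-labelled library. Of all 3992, 487 were higher in the Wtap-BKO-labelled library and 535 in Wtap flox/flox. The 209 genes lower in both were 16.5% and 36.2% of those lower in each. Of all 3992, 578 were lower in the Wtap-BKO-labelled library and 1263 in Wtap flox/flox, so sharing of lower genes was near that of all genes. There were 30 genes 2-fold higher in Wtap flox/flox and 2-fold lower in the Wtap-BKO-labelled library, and 1 with the reverse.

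Adipocyte genes lay on both sides of 0 in both libraries. The list as a whole was at 15621 CPM over 25% against 15982 under 5% in Wtap flox/flox, a log2 ratio of -0.03 (-0.065 to -0.0011) whose sign changed under other scalings, with values of 0.48 and 0.23. It was at 21399 against 14898 in the Wtap-BKO-labelled library (0.52, 0.50 to 0.55). Fabp4, a fatty-acid-binding protein, was at 5351 against 1353 and at 7288 against 2550. Adipoq, which encodes the hormone adiponectin, was at 462 against 183 and at 862 against 266. Lpl, the lipoprotein lipase, was at 1729 against 651 and at 2147 against 1202. All 3 were higher over 25% in each library. Pparg, the master regulator of adipocyte differentiation (chromosome 6, 115360879 to 115490404), was lower in each, at 1042 against 2911 and at 715 against 1299. Acsl1, an acyl-CoA synthetase, was also lower in each, at 1774 against 4690 and at 2143 against 2829. By 2-fold or more, 3 of 12 were higher and 3 lower in Wtap flox/flox, and 3 of 12 higher and 0 lower in the Wtap-BKO-labelled library. The shares over all genes were 14.4% and 32%, and 11.5% and 20.1%, so the count of lower members in Wtap flox/flox was not above that of all genes. The medians were -0.15 and 0.27, beside -0.47 and -0.39 over all genes.

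Ucp1 (ENSMUSG00000031710, chromosome 8, 83290348 to 83298456) was higher over 25% in Wtap flox/flox, with 237 UMIs at 437 CPM against 133 under 5%. The log2 ratio was 1.71 (1.50 to 1.92). In the Wtap-BKO-labelled library it had 152 UMIs at 206 CPM against 172, a log2 ratio of 0.26 (-0.01 to 0.52) whose interval held 0. This value depended on the droplets and scaling used. It was -0.83 in droplets with no UMI of 7 other lineage lists, 0.54 against droplets under 2%, 0.64 by the median of ratios and 0.74 in droplets with at least 3 endothelial UMIs. Along the bins it went from 125 CPM at up to 2% to 546 over 40% in Wtap flox/flox. In the Wtap-BKO-labelled library it peaked at 247 CPM between 10% and 25% and was at 173 over 40%. UCP1-iCre sits at the Ucp1 locus itself. Whether this modified allele altered the Ucp1 level in the mice labelled BKO was not tested and cannot be told apart from genotype, pool and library preparation.

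The other thermogenic genes are given by role. Cox8b, the muscle and brown fat form of a complex IV subunit, was at 1311 CPM against 243 in Wtap flox/flox and at 516 against 102 in the Wtap-BKO-labelled library. Cox7a1, likewise a complex IV subunit, was at 311 against 46.3 and at 122 against 21.3. Cidea, a lipid droplet protein, was at 2015 against 813 and at 1321 against 329. These 3 were higher over 25% in both libraries, and Cox8b and Cox7a1 are also in the OXPHOS list. Among transcriptional regulators of brown fat, Prdm16 (chromosome 4, 154316122 to 154637360) was at 206 against 792 in Wtap flox/flox and at 244 against 352 in the Wtap-BKO-labelled library. Ppargc1a, a coactivator of mitochondrial genes, was at 258 against 956 and at 211 against 316. Ppara, a receptor that drives fatty acid oxidation, was at 891 against 4011 in Wtap flox/flox but at 2495 against 2426 in the Wtap-BKO-labelled library. Esrrg, an orphan nuclear receptor, was at 724 against 2607 and at 1079 against 1107. These 4 regulators were lower by over 2-fold in Wtap flox/flox, and none of them passed 2-fold in the Wtap-BKO-labelled library. The direction did not follow role throughout. The regulator Esrra did not pass 2-fold, at 177 against 269 in Wtap flox/flox and at 257 against 205 in the Wtap-BKO-labelled library. Some genes of metabolism in this list were also lower in Wtap flox/flox. Cpt1b, which brings fatty acids into mitochondria, was at 442 against 1023 and Pank1, of coenzyme A synthesis, at 567 against 1152. The glycerol kinase Gk was at 138 against 372. Other genes of metabolism were higher there, such as Fabp4 (5351 against 1353) and Lpl (1729 against 651) of the adipocyte list. In the Wtap-BKO-labelled library Cpt1b was at 797 against 498, Pank1 at 759 against 584 and Gk at 134 against 139. By 2-fold or more, 4 of 16 members were higher and 10 lower in Wtap flox/flox. In the Wtap-BKO-labelled library 3 of 16 were higher and 0 lower. In each library 1 of the higher members reached 50 CPM only over 25%. The shares over all genes were 14.4% and 32%, and 11.5% and 20.1%. The medians were -1.21 and 0.04, beside -0.47 and -0.39 over all genes. Prdm16, Ppargc1a and Esrrg span over 250 kb, and Cox8b and Cox7a1 up to 5 kb. In Wtap flox/flox, 60.3% of all genes over 250 kb were 2-fold lower and 70.3% of those up to 5 kb 2-fold higher. Cpt1b, also lower there, spans 9.458 kb. The part of span in these directions was not tested. The summed list was at 9178 against 17449 CPM (-0.93, -0.97 to -0.89) and at 10872 against 9287 (0.23, 0.19 to 0.26). The direction in the Wtap-BKO-labelled library turned to -0.29 in droplets over 40% and to -0.54 in droplets with no UMI of 7 other lineage lists, an alternative chosen after the data were seen.

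**Figure D4:**
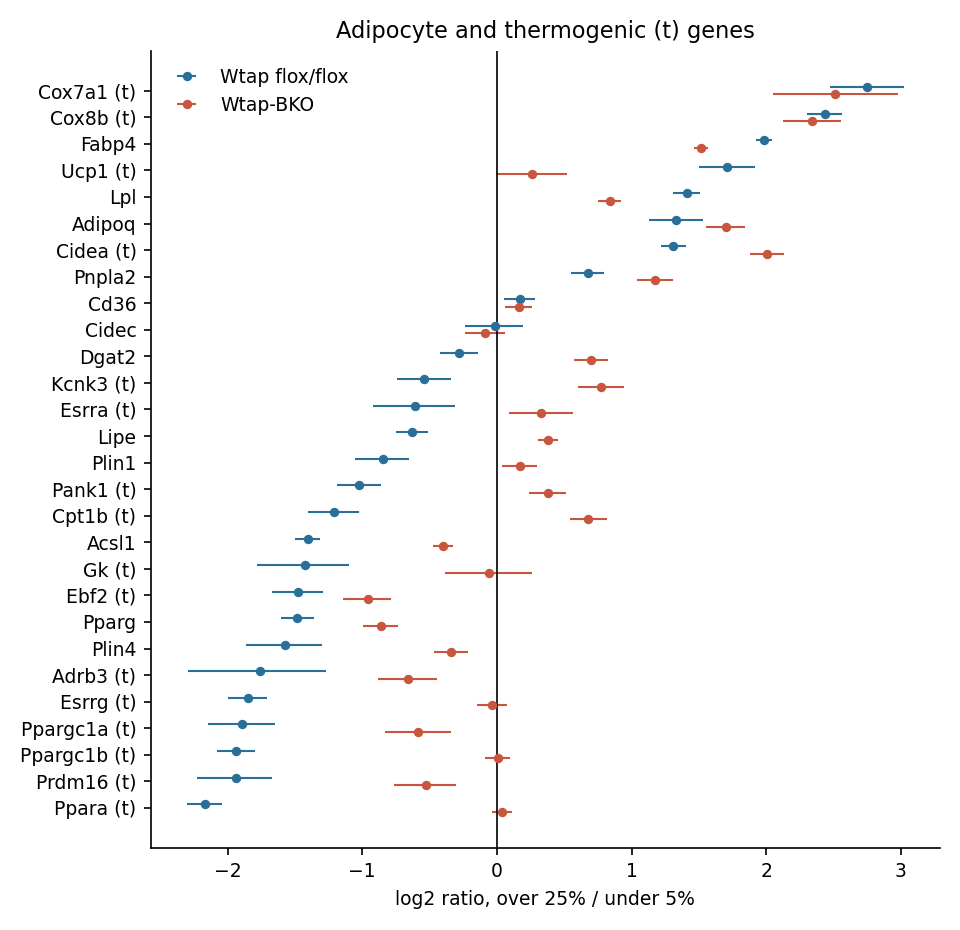
log2 ratio of CPM, droplets over 25% against under 5%, for the adipocyte genes and the thermogenic genes (t) with enough signal in both libraries, with exact 95% intervals for counting error, Wtap flox/flox in blue and the Wtap-BKO-labelled library in red. Cox7a1, Cox8b, Fabp4 and Cidea lay to the right of 0 in both libraries, and Ppara and Esrrg lay far to the left in Wtap flox/flox but near 0 in the Wtap-BKO-labelled library.

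The summed vessel genes lay above 0 in one library and below 0 in the other. The endothelial list was at 1986 CPM over 25% against 530 under 5% in Wtap flox/flox, a log2 ratio of 1.91 (1.806 to 2.004). Flt1, a VEGF receptor, was at 302 against 63.2, Egfl7, a protein that endothelial cells secrete, at 330 against 63.0, and Pecam1, an adhesion molecule of endothelial junctions, at 129 against 28.8. In the Wtap-BKO-labelled library the list was at 623 against 981 (-0.66, -0.80 to -0.51). There Flt1 was at 62.3 against 106, Egfl7 at 63.6 against 99.4 and Pecam1 at 60.9 against 80.7. The medians over all 12 members were 2.17 and -0.51, beside -0.47 and -0.39 over all genes. The deepest droplets weighed on these sums. With each droplet weighted equally the list was 1.31 in Wtap flox/flox and -1.48 in the Wtap-BKO-labelled library, and without the 5% of droplets with the most UMIs it was 1.50 and -1.01. By the median of ratios it was 2.41 and -0.27, so the value in the Wtap-BKO-labelled library came near the shift of all genes. In Wtap flox/flox the list was at 338 CPM at up to 2%, 2175 between 25% and 40% and 1348 over 40%. The mural list of pericytes and smooth muscle was at 390 against 358 (0.13, -0.08 to 0.33) and at 282 against 398 (-0.50, -0.72 to -0.29).

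The vessel genes were also counted by droplet. After thinning to 300 UMIs, 11.9% (9.43 to 14.9) of Wtap flox/flox droplets over 25% had at least 2 endothelial UMIs against 3.49% under 5%, and in the Wtap-BKO-labelled library 2.37% (1.41 to 3.72) had them against 9.16%. The unthinned shares were 29.4% against 9.66% and 8.29% against 19.8%. Between 5% and 25% the thinned share was 11.6% in Wtap flox/flox and 5.96% in the Wtap-BKO-labelled library, so droplets over 25% were not the only ones rich in these genes in the former.

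Immune and stromal genes were lower over 25% in the Wtap-BKO-labelled library. The macrophage list was at 328 CPM against 966 there (-1.56, -1.75 to -1.37) and -0.72 against droplets under 2%. The median over its 10 members was -1.65, beside -0.39 over all genes. Mrc1, the mannose receptor, was at 39.3 against 175, and Adgre1, which encodes F4/80, at 14.9 against 118. In Wtap flox/flox the list was at 184 against 215 (-0.23, -0.53 to 0.07), an interval that held 0 and a sign that changed when values were scaled by the median of ratios over genes (0.28). It had only 100 UMIs over 25%. The T cell list was at 173 against 406 in the Wtap-BKO-labelled library (-1.23, -1.50 to -0.97). There the list was at 222 in droplets of up to 2% but at 429 between 2% and 5%, and only 2 of its 10 members were compared. In Wtap flox/flox it was at 44.2 against 54.5 (-0.30, -0.96 to 0.29), from 24 UMIs, with a sign that changed by the median of ratios (0.21). The fibroblast list was at 1111 against 2629 in the Wtap-BKO-labelled library (-1.24, -1.35 to -1.14), and at 628 against 465 in Wtap flox/flox (0.44, 0.27 to 0.60). The medians over its 10 members were -1.76 and 0.28. It was led by Gsn, the actin-severing gelsolin, with 53.1% of its UMIs in Wtap flox/flox and 66.5% in the Wtap-BKO-labelled library. The collagen gene Col1a1 was at 82.6 against 301 in the latter and at 55.3 against 56.8 in the former.

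The droplets compared with were not alike in the 2 libraries. Under 5%, 74.9% of the thinned droplets labelled Wtap-BKO had at least 2 adipocyte UMIs against 90.8% of Wtap flox/flox, 6.76% against 1.27% had at least 2 macrophage UMIs, and 11.3% against 2.31% had at least 2 fibroblast UMIs. Over 25% the adipocyte shares were 96.4% and 94.5%, the macrophage shares 1.05% and 0.512% and the fibroblast shares 7.25% and 1.88%. The part of these differing makeups in the ratios of adipocyte, vessel and immune genes was not tested.

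Of the rarer lists, the Schwann list was at 84.7 against 144 CPM in Wtap flox/flox and at 106 against 218 in the Wtap-BKO-labelled library. The B cell, skeletal muscle and epithelial lists had at most 18 UMIs over 25% in either library, and no ratio is drawn from them. The erythroid list, led by Hbb-bs of adult haemoglobin, was higher in both, at 589 against 87.4 (2.75, 2.55 to 2.95) and at 210 against 38.6 (2.44, 2.10 to 2.79), the highest ratio of the 20 lists in each library. Its 3 and 2 compared members reached 50 CPM only over 25%. Hbb-bs itself was at 267 against 40.7 and at 83.9 against 13.2.

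**Figure D5:**
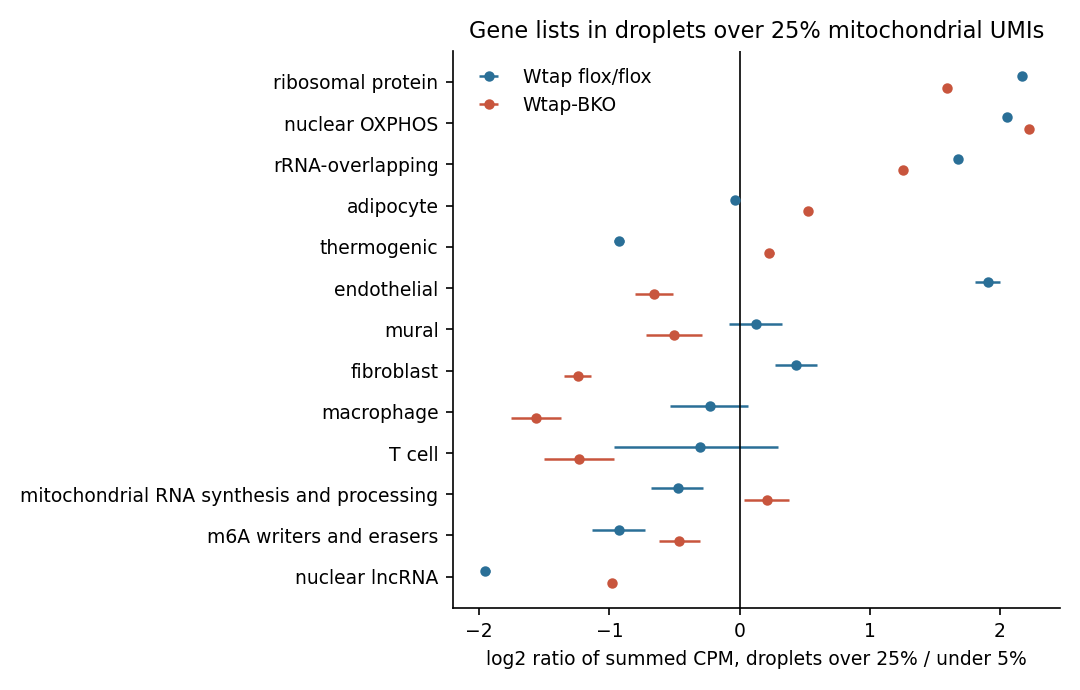
log2 ratio of the summed CPM of 13 gene lists, droplets over 25% against under 5%, with exact 95% intervals for counting error (many narrower than the point), Wtap flox/flox in blue and the Wtap-BKO-labelled library in red. Ribosomal protein, nuclear OXPHOS and rRNA-overlapping genes lay above 1 and nuclear lncRNAs below -0.9 in both libraries, while the endothelial list lay at 1.91 and -0.66.

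Adipocyte RNA was also present in droplets rich in endothelial genes. Of the droplets over 25%, 132 of 592 (22.3%, 19.0 to 25.9) in Wtap flox/flox and 37 of 760 (4.87%, 3.45 to 6.65) in the Wtap-BKO-labelled library had at least 3 endothelial UMIs. In these, the adipocyte list was at 14493 and 17170 CPM, and 93.2% and 89.2% of them had at least 2 adipocyte UMIs after thinning. Ucp1 was at 435 CPM in these endothelial-rich droplets of Wtap flox/flox, beside 437 in all its droplets over 25%. After thinning, 9.85% (5.35 to 16.3) of them had a Ucp1 UMI beside 10.9% (8.51 to 13.7) of all droplets over 25%, at median depths of 1348 and 623.5 non-mitochondrial UMIs. Under 5%, the same shares were 3.59% and 4.03%. Endothelial cells should lack Ucp1. The share in endothelial-rich droplets over 25% came from 13 of 132, and these are also part of all droplets over 25%, so the 2 shares are not independent. Free RNA and droplets that hold more than 1 nucleus were not told apart, so a Ucp1 UMI is not assigned to the nucleus of its droplet. In the Wtap-BKO-labelled library, 0 of 37 endothelial-rich droplets had a Ucp1 UMI after thinning, which allows a share of up to 9.49%, beside 4.74% of all its droplets over 25%. Before thinning these 37 held 7 Ucp1 UMIs (93.8 CPM), beside 206 CPM in all its droplets over 25%.

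Values in 2 subsets of droplets, chosen after the data were seen, are given next. Neither subset is of a single lineage. The droplets with no UMI of other lineages were also shallower over 25% (medians of 448 and 665 non-mitochondrial UMIs) than under 5% (878 and 1101), and the part of depth in that choice was not tested. In endothelial-rich droplets the log2 ratio was 2.04 and 2.19 for OXPHOS, 2.02 and 1.78 for ribosomal proteins and -1.86 and -1.16 for Malat1 (Wtap flox/flox, then Wtap-BKO-labelled). In droplets with no UMI of 7 other lineage lists, 163 and 184 over 25%, the ratios were 2.08 and 1.97 for OXPHOS, 2.17 and 1.57 for ribosomal proteins and -1.96 and -1.16 for Malat1. Ucp1 was at 497 against 147 CPM in these droplets of Wtap flox/flox (1.76, 1.28 to 2.20). It was at 242 against 430 in the Wtap-BKO-labelled library, where its ratio became -0.83 (-1.42 to -0.27). The thermogenic list in these droplets was at -0.73 and -0.54.

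The list of genes for the making and processing of mitochondrial RNA, which are nuclear, took opposite directions in the libraries. It was at 405 against 563 CPM in Wtap flox/flox (-0.48, -0.68 to -0.28, but 0.03 when scaled by the median of ratios) and at 475 against 411 in the Wtap-BKO-labelled library (0.21, 0.04 to 0.38). Lrpprc, which stabilises mitochondrial messages, was at 58.9 against 121 and at 60.9 against 77.2. Its partner Slirp was under the minimum of 50 CPM in every group, with 24 and 29 UMIs over 25%, and was not compared. The m6A writers and erasers were at 378 against 718 (-0.93, -1.14 to -0.73) and at 524 against 722 (-0.46, -0.62 to -0.31, but -0.079 by the median of ratios, so near the shift of all genes). Zc3h13, of the complex that holds WTAP, was at 71.8 against 167 and at 103 against 131. The eraser Alkbh5 stood the other way in the Wtap-BKO-labelled library, at 59.6 against 30.7, and was at 29.5 against 28.6 in Wtap flox/flox. White adipocyte genes were at 195 against 308 (-0.66) and at 715 against 910 (-0.35, but 0.04 when scaled by the median of ratios). Immediate-early genes were at 293 against 213 (0.46) and at 987 against 1195 (-0.28, but 0.11 under the same scaling).

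Between genotypes, Ucp1 stood opposite ways in the 2 kinds of droplet. Over 25%, the Wtap-BKO-labelled library was at 206 CPM against 437 in Wtap flox/flox, a log2 ratio of -1.09 (-1.39 to -0.79). Under 5% it was at 172 against 133, a ratio of 0.37 (0.22 to 0.52). Ppara stood the other way, at 2495 against 891 over 25% (1.48, 1.34 to 1.63) and at 2426 against 4011 under 5% (-0.73, -0.76 to -0.69). Malat1 was at 15240 against 10112 over 25% (0.59) and at 29914 against 42480 under 5% (-0.51). Cox8b was lower in the Wtap-BKO-labelled library in both kinds, with -1.35 and -1.25, and so was Pparg, with -0.54 and -1.16. The difference between the 2 kinds of droplet was not tested in any of these.

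Of 2154 genes with at least 100 UMIs in the droplets over 25%, 11.5% were 2-fold higher (248) and 3.25% 2-fold lower (70) in the Wtap-BKO-labelled library, and the median log2 ratio was 0.28. The 5 highest were Ltc4s, Col5a3, Ccdc80, Sntb1 and Tmem132b. Ltc4s, the leukotriene C4 synthase, was at 154 CPM against 11.1 in the droplets over 25% and at 88.0 against 21.3 under 5%. Col5a3, a chain of type V collagen, was at 292 against 31.3 and at 372 against 50.5. The 5 lowest were Ushbp1, Arap3, Kitl, Ccdc85a and Egfl7. Kitl, the ligand of the receptor KIT, was at 36.5 against 206 over 25% but at 96.8 against 43.8 under 5%. Egfl7 was at 63.6 against 330 over 25% and at 99.4 against 63.0 under 5%, in the same droplets in which the endothelial list was at 623 against 1986 and at 981 against 530.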

How the data were processed

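The authors deposited raw counts of UMIs per gene and droplet for 2 libraries of 10x 3' v3.1 single-nucleus RNA sequencing, made per the file headers with Cell Ranger 5.0.0. The submitters' processing notes name mm10, Trimmomatic, FastQC and Seurat. Per the methods of the study, droplets under 500 UMIs had been removed. The treatment of intronic reads is not given in the sources used here. The deposited tables list 32285 genes, 13 of them mitochondrial, and 38 symbols occur more than once (the gene listed first was used).

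A droplet was a member if genes with the prefix mt- held over 25% of its UMIs. Counts were summed over droplets and expressed per 1000000 non-mitochondrial UMIs. A gene was compared at a CPM of at least 50 in either group and at least 20 UMIs in both together. A sum of 0 was set to 3 UMIs. Ratios have exact conditional intervals, shares Clopper-Pearson intervals and levels exact Poisson intervals, all at 95% and for counting error only. With 1 library per genotype no test was made. The code was tested on simulated data.

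Named genes were the 12 highest by the smaller and the 12 lowest by the larger of both libraries' log2 ratios, taken from genes that reached a CPM of 100 in either group and 20 UMIs in each library. Between genotypes they were the 5 highest and 5 lowest with at least 100 UMIs. The members of the gene lists were named in addition. The members and lists were chosen with earlier results of these data known. Spans and positions come from RefSeq for GRCm38.p6, matched by symbol. Python 3.11.15, numpy 2.4.6, scipy 1.17.1, pandas 2.3.3 and matplotlib 3.10.9 were used. Alternatives changed the thresholds, depth, scaling and weighting.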

Additional observations from a re-analysis of the deposited data

Results flagged for a closer look

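For each result here, the log2 ratio of droplets over 25% against under 5% went opposite ways in the libraries, or the ratio between genotypes went opposite ways in the droplets over 25% and under 5%. With 1 library per genotype the differences were not tested. Each value is the log2 ratio in the library labelled Wtap-BKO minus that in Wtap flox/flox. The adipocyte list differed by 0.56, the thermogenic list by 1.15 and the endothelial list by -2.56, and these 3 were opposite in both ways. The adipocyte list was positive in both libraries under either other scaling (0.48 and 0.91 by the median of ratios, 0.23 and 0.65 with 3 genes left out of the denominator), and the thermogenic list was negative in both (-0.73 and -0.54) in droplets with no UMI of other lineages. The fibroblast list (-1.68), the immediate-early list (-0.74) and the list of mitochondrial RNA synthesis and processing (0.68) were opposite between the libraries, but by the median of ratios the last was positive in both (0.03 and 0.59) and so was the immediate-early list (0.97 and 0.11). The mural list (-0.63), the nuclear lncRNA list (0.97), the ribosomal protein list (-0.57) and Ucp1 (-1.45) were opposite between the kinds of droplet.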

How the results depend on the processing

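No paired analysis was possible because each genotype had 1 library and the labels carry no replicate numbers, and with no replicate there was none to leave out. The 2 choices by lineage, and all alternatives for the OXPHOS, ribosomal protein and thermogenic lists, were added after the data were seen. Of 207 alternative values, log2 ratios unless stated, those that moved past the counting interval are given here, for these 3 lists as ranges, and the cause was not tested except where fewer or other genes, droplets or denominators make it.

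In Wtap flox/flox, the adipocyte list turned positive over 40% (0.071), without the 5% of droplets with the most UMIs (0.028), with each droplet weighted equally (0.043), in endothelial-rich droplets (0.069) and under both scalings (0.48 by the median of ratios, 0.23 with 3 genes left out of the denominator), and was -0.072 against under 2%. Ucp1 was 2.03 over 40%, 2.22 and 1.98 under the scalings and 1.95 in endothelial-rich droplets. The endothelial list was 1.35 over 40%, 2.55 against under 2%, 2.05 with at least 500 non-mitochondrial UMIs, 1.50 without the largest droplets, 2.41 and 2.17 under the scalings and 1.31 with equal weights. The macrophage list was 0.27 against under 2% and 0.28 by the median of ratios. The nuclear lncRNA list was -1.69 over 20%, -2.51 over 40%, -2.09 against under 2%, -1.87 with at least 500 UMIs, -2.03 without the largest droplets, -1.45 and -1.69 under the scalings, -2.09 with equal weights, -1.72 in endothelial-rich droplets and -1.90 in those with no UMI of other lineages. The share of droplets was 8.94% over 20%, 1.73% over 40% and 5.64% without the largest droplets. Genes 2-fold higher numbered 1113 and 939 under the scalings, 1055 at a CPM of at least 20 and 1442 with no filter, and those lower 373, 839, 2147 and 3326.

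In the library labelled Wtap-BKO, Ucp1 was 0.54 against under 2%, 0.64 by the median of ratios, 0.74 in endothelial-rich droplets and -0.83 in those with no UMI of other lineages. The adipocyte list was 0.49 over 20%, 0.62 over 40%, 0.65 against under 2%, 0.56 without the largest droplets, 0.91 and 0.65 under the scalings, 0.62 with equal weights, 0.66 in endothelial-rich droplets and 0.083 in those with no UMI of other lineages. The endothelial list was -0.81 over 20%, -1.01 without the largest droplets, -0.27 by the median of ratios and -1.48 with equal weights. The macrophage list was -0.72 against under 2%, -1.84 without the largest droplets and -1.18 by the median of ratios. The nuclear lncRNA list was -0.69 over 20%, -2.04 over 40%, -1.21 against under 2%, -0.91 with at least 500 UMIs, -0.60 and -0.86 under the scalings, -1.14 with equal weights, -1.09 in endothelial-rich droplets and -1.16 in those with no UMI of other lineages. The thermogenic list turned to -0.29 over 40% and to -0.54 in droplets with no UMI of other lineages, and was otherwise between 0.19 and 0.71 there and between -1.02 and -0.42 in Wtap flox/flox. The share was 13.7% over 20% and 3.16% over 40%. Genes 2-fold higher numbered 920 over 40%, 995 by the median of ratios, 887 at a CPM of at least 20 and 1029 with no filter, and those lower 2211, 521, 1766 and 2802. Between genotypes, Ucp1 over 25% was -1.66 over 40% and -1.41 by the median of ratios. OXPHOS stayed between 1.92 and 2.84 and ribosomal proteins between 1.35 and 2.68 in both libraries under all alternatives run. Several lists rest on few UMIs over 25%, such as 24 T cell and 100 macrophage UMIs in Wtap flox/flox.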
